A study of Mus musculus with 8 samples.

Results

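The subject is how far the difference between brain and spleen in regulatory T cells (Treg) departed from the same difference in the other CD4 T cells (nonTreg), gene by gene. For each gene the value is (brain Treg minus spleen Treg) minus (brain nonTreg minus spleen nonTreg) on a log2 scale, called here the difference of differences. A negative value means that brain over spleen was lower in Treg than in nonTreg, which is the same as Treg over nonTreg being lower in the brain than in the spleen. Members were the genes whose probe was well above background on all 4 T cell arrays, 11311 of the 22911 genes with a named probe, and the 4 T cell arrays are 4 of the 8 samples of the series. The groups were Treg from the ischemic brain of wild type (WT) mice taken on day 14 after stroke, Treg from the spleen of untreated mice, nonTreg from the same kind of ischemic brain, and nonTreg from the spleen of untreated mice. All 4 were CD4+ T cells. The labels give neither the strain, the sex or the age of the mice, nor the number pooled, nor the markers that separated Treg from nonTreg. Each group had 1 array, so no value below has a replicate check, no p-value can be given, and counts are of genes at least 2-fold from 0. Brain after stroke was set against untreated spleen, so organ, stroke and cell isolation cannot be told apart, and in these bulk samples fewer cells of a type cannot be told apart from less RNA per cell.

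Treg are the CD4 T cells that restrain other immune cells. They depend on the transcription factor Foxp3, take up IL-2 through a high-affinity receptor that they keep on the surface, and signal from it through STAT5. In mouse tissues, the injured brain included, Treg acquire receptors such as ST2 and CCR8 and secrete growth factors such as amphiregulin, while conventional CD4 T cells upregulate several of the Treg receptors for a time once they are activated.

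As a check of the labels, Foxp3 had a scaled signal of 3843 in brain Treg and 7782 in spleen Treg, against 726 in brain nonTreg and 12.2 in spleen nonTreg, where it was not well above background. Scaled signals are linear intensities after each array was brought to a common 75th percentile. Foxp3 therefore marked both Treg libraries and was also well above background in the library labelled brain nonTreg. With 1 dim array Foxp3 was no member, and its difference of differences was bounded at -6.90 or lower. Lrrc32, which encodes the TGF-beta docking receptor GARP of activated Treg, had the same form, with 10313 in brain Treg and 11195 in spleen Treg, against 1732 in brain nonTreg and 5.47 in spleen nonTreg, and a bound of -7.25 or lower. Whether the Foxp3 of brain nonTreg came from Treg in that sort or from other CD4 T cells was not tested. The 12 T cell markers were well above background on all 4 arrays, none reached 2-fold, and their median difference of differences was -0.11.

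For most genes brain differed from spleen by a like amount in Treg and in nonTreg. The median difference of differences was 0.02 with an SD of 0.54 over the 11311 genes, and 93.9% of genes (10621) lay within 2-fold. Of the 11311 genes 5887 lay above 0 and 5424 below, the base for the list counts by sign further on. At least 2-fold above 0 were 261 genes (2.31% of members), and at least 2-fold below 0 were 429 (3.79%). At 4-fold the counts were 33 above and 68 below, so the lower side held more genes at either threshold. With no filter on dim probes, however, 957 genes were at 2-fold above 0 and 779 below. That setting raised dim signals to unequal floors, 12.4 in spleen nonTreg against 8.47 to 9.85 on the other arrays. Such floors draw dim genes above 0, so these counts cannot settle which side holds more. By contrast, brain minus spleen by itself reached 2-fold for many more genes, 1266 higher (11.2%) and 1314 lower (11.6%) in Treg, and 1396 higher (12.3%) and 1283 lower (11.3%) in nonTreg. Gm30770 and Prox2 lay just inside 2-fold, and Trpm1 (0.998) and Gbp2 (-0.9999) just outside. Spots of one probe repeated 10 times on an array gave a technical SD of 0.081 for a difference of differences, combined from each array's median. From repeated probes under a signal of 50, only 4 to 9 per array, it was 0.384, which takes the signal as dim on all 4 arrays. Of the 690 genes at 2-fold, 376 (54.5%) had a signal under 50 on at least 1 array, against 18.1% of all members (2047), so more than their share rest on a dim spot. With background correction by normexp, a method that shrinks dim signals, 110 genes reached 2-fold above 0 and 170 below.

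**Figure D1:**
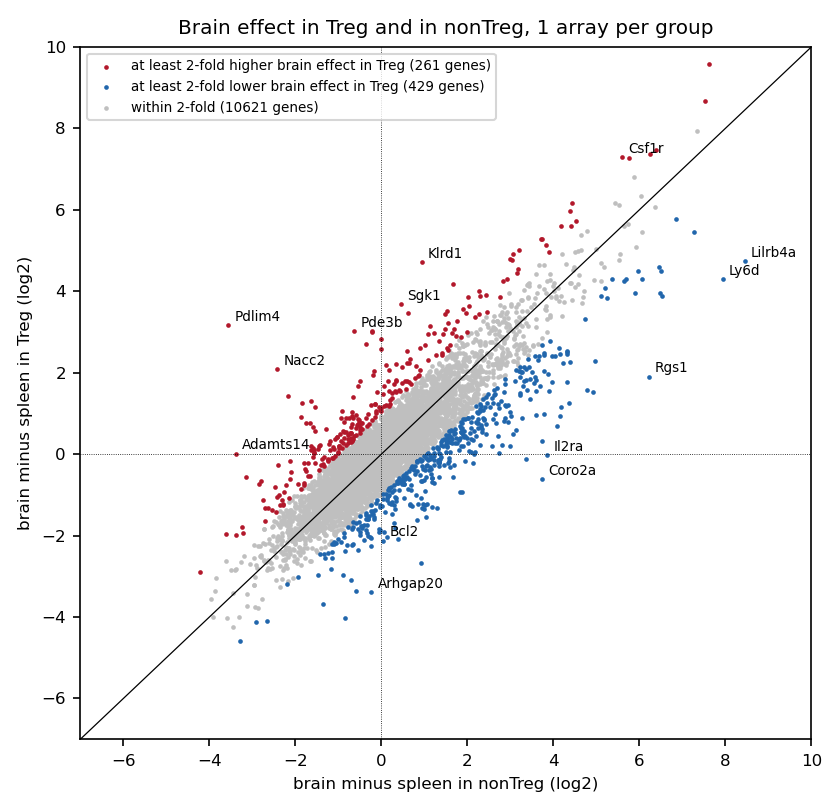
Brain minus spleen in Treg (vertical axis, log2) against brain minus spleen in nonTreg (horizontal axis, log2), 1 point per gene for 11311 genes, with the line of equal values. Red points are the 261 genes at least 2-fold above the line and blue points the 429 genes at least 2-fold below it; Pdlim4 lies farthest above and Coro2a farthest below.

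Most of the 20 lowest differences of differences belonged to genes whose lowest signal was in spleen nonTreg. Coro2a, which encodes an actin-binding coronin, had 348 in brain Treg and 533 in spleen Treg, against 263 in brain nonTreg and 19.7 in spleen nonTreg, and a difference of differences of -4.36. Rgs1, a GTPase-activating protein that dampens signals from chemokine receptors, had 7605 in brain Treg and 2032 in spleen Treg, against 8056 in brain nonTreg and 108 in spleen nonTreg (-4.31). In both genes the spleen nonTreg library was lowest, and the brain libraries differed by 0.40 and -0.08 (Treg minus nonTreg, log2). Il2ra, the high-affinity chain of the IL-2 receptor, had 5947 in brain Treg and 6070.2 in spleen Treg, against 999 in brain nonTreg and 69.0 in spleen nonTreg (-3.89). Treg kept the same Il2ra level in both organs (brain minus spleen -0.03), while nonTreg of the brain were higher than nonTreg of the spleen by 3.86. Lilrb4a, an inhibitory immunoglobulin-like receptor, had 12205 in brain Treg and 455 in spleen Treg, against 10615 in brain nonTreg and 30.3 in spleen nonTreg, so that brain exceeded spleen in Treg (4.75) and further in nonTreg (8.45). Ly6d, a surface protein of B-lineage cells, had 1224 in brain Treg and 62.0 in spleen Treg, against 4250.1 in brain nonTreg and 17.3 in spleen nonTreg (-3.64). Cd79b, a signalling chain of the B cell receptor, had 999 in brain Treg and 1089 in spleen Treg, against 705 in brain nonTreg and 68.9 in spleen nonTreg (-3.48). These B-lineage genes are taken up again beside the B cell markers. Map6, a microtubule-stabilising protein, had 981 in brain Treg and 789.6 in spleen Treg, against 738 in brain nonTreg and 55.0 in spleen nonTreg (-3.43), although another probe of the gene gave -1.43.

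The same shape was seen in several regulators of signalling. Spry1, an inhibitor of MAP kinase signalling, had 2391 in brain Treg and 837 in spleen Treg, against 5132 in brain nonTreg and 169 in spleen nonTreg (-3.41). Entpd1 encodes CD39, the enzyme with which Treg degrade extracellular ATP, and had 585 in brain Treg and 363 in spleen Treg, against 478 in brain nonTreg and 28.1 in spleen nonTreg (-3.40). Cish, a feedback inhibitor induced by STAT5, had 5304 in brain Treg and 2752 in spleen Treg, against 4756 in brain nonTreg and 269 in spleen nonTreg (-3.20). In each of these genes Treg exceeded nonTreg in the spleen by at least 4-fold. In the brain Treg and nonTreg lay within 1.22-fold for Entpd1 and Cish, while Spry1 was lower in Treg (-1.10). Lamc1, a laminin chain, had 816 in brain Treg and 273 in spleen Treg, against 439 in brain nonTreg and 15.9 in spleen nonTreg (-3.21), and Myo1e, an unconventional myosin, had 513 in brain Treg and 260.4 in spleen Treg, against 204 in brain nonTreg and 14.8 in spleen nonTreg (-2.80). Both were low in spleen nonTreg and came to -0.94 and -0.82 with normexp. Tgm2, a transglutaminase, was at -3.10, the interferon-inducible Apol9b at -2.78, and Osgin1, an oxidative stress-induced growth inhibitor, at -2.77. With normexp several of the lowest genes moved by over 1.5 times and kept their sign and 2-fold, to -2.59 for Coro2a, -2.30 for Ly6d, -2.25 for Map6, -1.88 for Entpd1 and -1.33 for Tgm2. Lilrb4a likewise moved from -3.71 to -1.96.

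Another form among the lowest genes was a lower level in brain than in spleen Treg. Fhdc1, a formin-family protein, had 23.9 in brain Treg and 152 in spleen Treg, against 125 in brain nonTreg and 66.3 in spleen nonTreg (-3.58), so that Treg were lower in the brain (-2.67) and nonTreg higher (0.91). Arhgap20, a GTPase-activating protein, had 30.1 in brain Treg and 315 in spleen Treg, against 31.7 in brain nonTreg and 37.3 in spleen nonTreg (-3.15). Gucy1a1, a subunit of soluble guanylate cyclase, had 15.0 in brain Treg and 154 in spleen Treg, against 18.3 in brain nonTreg and 27.6 in spleen nonTreg (-2.77). In Arhgap20 and Gucy1a1 spleen Treg alone were high. With normexp the 3 genes came to -1.88, -1.79 and -1.48. Bcl2, which protects T cells from apoptosis, took this form at a high signal, with 903 in brain Treg and 3941 in spleen Treg, against 1969 in brain nonTreg and 1908 in spleen nonTreg (-2.17), and a second Bcl2 probe gave -2.24.

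At the other end spleen Treg were low, spleen nonTreg were high, or both. Pdlim4, an actin-associated protein with a PDZ and a LIM domain, had 394 in brain Treg and 43.8 in spleen Treg, against 524 in brain nonTreg and 6227 in spleen nonTreg, and at 6.74 it was the highest of all members. Brain exceeded spleen by 3.17 in Treg and was lower in nonTreg (-3.57), and Treg and nonTreg lay 142-fold apart in the spleen and 1.33-fold apart in the brain. Nacc2, a transcriptional repressor of the BTB family, had 90.0 in brain Treg and 21.1 in spleen Treg, against 73.0 in brain nonTreg and 394 in spleen nonTreg (4.52). Nme4, a mitochondrial nucleoside diphosphate kinase, had 51.6 in brain Treg and 19.2 in spleen Treg, against 86.7 in brain nonTreg and 390.4 in spleen nonTreg (3.60). Klrd1, which encodes the NK cell receptor chain CD94, had 475 in brain Treg and 17.98 in spleen Treg, against 1426 in brain nonTreg and 743 in spleen nonTreg (3.78), with brain Treg below brain nonTreg and spleen Treg alone near the floor. Pde3b, a cAMP phosphodiesterase gene that Foxp3 is known to repress in mouse Treg, had 728 in brain Treg and 89.2 in spleen Treg, against 1156 in brain nonTreg and 1787 in spleen nonTreg (3.66), and a second probe gave 4.03. Sgk1, a kinase induced by salt and glucocorticoids, had 3092 in brain Treg and 241 in spleen Treg, against 1974 in brain nonTreg and 1432 in spleen nonTreg (3.22). In Pde3b and Sgk1 the spleen Treg library was lowest, and neither gene had a signal near the floor.

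Further genes of this end were dimmer. Adamts14, a procollagen-processing protease, had 18.2 in brain Treg and 18.05 in spleen Treg, against 47.2 in brain nonTreg and 495 in spleen nonTreg (3.40), and was the same in Treg of both organs. Tmem141, a membrane protein gene, had 282 in brain Treg and 34.5 in spleen Treg, against 186 in brain nonTreg and 218 in spleen nonTreg (3.26). Myo10, a myosin of filopodia, had 29.7 in brain Treg and 12.4 in spleen Treg, against 33.9 in brain nonTreg and 122 in spleen nonTreg (3.10). Wnt5b, a Wnt ligand, had 39.2 in brain Treg and 16.0 in spleen Treg, against 44.5 in brain nonTreg and 139.6 in spleen nonTreg (2.94). Slpi, a secreted protease inhibitor, had 422 in brain Treg and 37.9 in spleen Treg, against 736 in brain nonTreg and 480.2 in spleen nonTreg (2.86), and a second probe gave 1.003. Sco1, a copper chaperone of cytochrome c oxidase, differed in form, with 77.5 in brain Treg and 11.9 in spleen Treg, against 11.1 in brain nonTreg and 14.2 in spleen nonTreg (3.06), since brain Treg alone were high. Neurl1a, a ubiquitin ligase, also had its highest signal in brain Treg, with 206 in brain Treg and 11.4 in spleen Treg, against 62.7 in brain nonTreg and 19.8 in spleen nonTreg (2.51). Tent5a, a poly(A) polymerase, was also highest in brain Treg but at a high signal, with 5290.1 in brain Treg and 887 in spleen Treg, against 1995 in brain nonTreg and 2019.9 in spleen nonTreg (2.59). Acvrl1, a receptor of the TGF-beta family, was at 2.42, with 257 in brain Treg and 152 in spleen Treg, against 246 in brain nonTreg and 779.9 in spleen nonTreg. With normexp the dim genes of this end came nearer 0, to 2.60 for Nacc2, 1.96 for Nme4, 1.80 for Klrd1, 1.93 for Tmem141, 1.17 for Myo10, 1.20 for Wnt5b, 1.65 for Slpi and 1.16 for Sco1. Neurl1a likewise came to 1.37. Among the 11311 members, the genes whose 4 centred values were nearest to those of Pdlim4 were Nme4 (Euclidean distance 2.01 over 4 arrays), Nacc2 (2.13) and Adamts14 (2.35). Nearest to Coro2a were Cd79b (0.559), Map6 (0.799) and Lad1 (1.04), and with 4 arrays such distances are a description only.

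**Figure D2:**
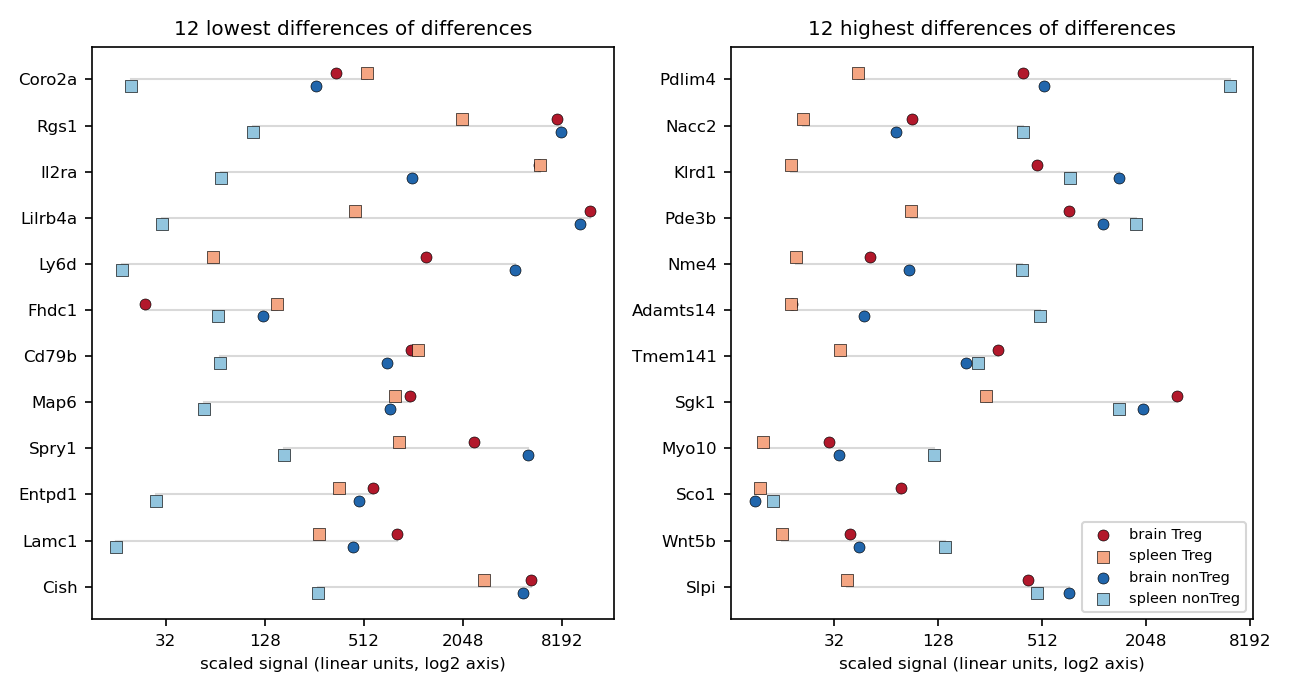
Scaled signal (linear units on a log2 axis) of the 12 genes with the lowest (left) and the 12 with the highest (right) difference of differences on each of the 4 T cell arrays; circles are brain and squares spleen, red is Treg and blue nonTreg. On the left the pale blue square, spleen nonTreg, is lowest in most genes, and on the right the pale red square, spleen Treg, is; the brain Treg point of Il2ra (5947) lies behind that of spleen Treg (6070).

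Shared control of the extreme genes was not tested. As a description, promoters are shown for Pdlim4 and Nme4, among the highest genes, and for Coro2a and Il2ra, among the lowest. Each runs from 250 bases before to 50 bases after the annotated start, 5' to 3' on the gene's strand, from RefSeq on GRCm38.p6, with motif matches on either strand in capitals. Pdlim4 (chr11:54068968-54069267, minus strand) and Nme4 (chr17:26095421-26095720, minus strand) held only matches to the SP and KLF letters. The downstream of the annotated Coro2a promoters (chr4:46566391-46566690, minus strand) held matches to the heat shock element, NF-kB and RUNX, while the upstream one held 5 SP and KLF matches. The Il2ra promoter (chr2:11642542-11642841, plus strand) held no match to the exact letters searched for each motif. Its bases gggaatcccc lay outside the NF-kB letters searched, so this search cannot show that it lacks an NF-kB site of another form. The NF-kB shares given below rest on the same letters.
Pdlim4: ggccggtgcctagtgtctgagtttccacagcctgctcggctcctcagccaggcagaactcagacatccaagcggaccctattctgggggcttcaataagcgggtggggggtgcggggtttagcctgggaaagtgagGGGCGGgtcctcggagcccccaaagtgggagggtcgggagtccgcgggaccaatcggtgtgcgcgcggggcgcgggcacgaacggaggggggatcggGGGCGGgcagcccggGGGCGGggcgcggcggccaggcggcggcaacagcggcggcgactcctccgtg
Nme4: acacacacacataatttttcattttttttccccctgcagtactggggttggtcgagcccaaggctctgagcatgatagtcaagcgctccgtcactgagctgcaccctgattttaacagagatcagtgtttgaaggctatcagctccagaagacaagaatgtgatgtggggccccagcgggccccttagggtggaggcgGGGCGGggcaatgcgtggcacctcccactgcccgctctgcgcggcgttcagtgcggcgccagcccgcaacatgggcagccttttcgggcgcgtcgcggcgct
Coro2a: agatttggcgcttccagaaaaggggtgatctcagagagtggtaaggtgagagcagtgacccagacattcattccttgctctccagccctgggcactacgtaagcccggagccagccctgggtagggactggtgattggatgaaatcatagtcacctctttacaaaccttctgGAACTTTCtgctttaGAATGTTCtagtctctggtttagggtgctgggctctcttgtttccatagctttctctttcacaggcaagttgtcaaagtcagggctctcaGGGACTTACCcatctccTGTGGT
Il2ra: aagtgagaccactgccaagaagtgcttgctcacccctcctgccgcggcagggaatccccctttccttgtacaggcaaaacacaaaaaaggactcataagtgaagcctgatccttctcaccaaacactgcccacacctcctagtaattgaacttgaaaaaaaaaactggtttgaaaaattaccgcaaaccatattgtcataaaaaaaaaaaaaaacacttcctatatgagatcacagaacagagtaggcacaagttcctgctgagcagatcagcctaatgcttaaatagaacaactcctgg

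Over all genes at 2-fold with a promoter in the table, shares of promoters with each motif were counted beside those of all members (11534 promoters of 9088 genes). The ETS letters CCGGAAG were in 11.2% of 269 promoters of genes at or above 1 and in 6.36% of 440 promoters of genes at or below -1, against 18.4% of all members. RUNX letters (TGTGGT) were in 15.6% of promoters above and 18.4% below, against 13.2%. AP-1 letters (TGANTCA) were in 5.58% above and 7.95% below, against 5.05%, and NF-kB matches were in 1.86% above and 3.18% below, against 1.33%. The SP and KLF letters GGGCGG were in 55.8% above and 53.2% below, against 60.9%, and the E-box CACGTG in 9.67% above and 6.82% below, against 10.1%. The forkhead letters GTAAACA, near to what Foxp3 binds, were in 3.35% above and 3.18% below, against 2.72%. The TATA box (TATAAA) was in 11.9% above and 9.55% below, against 7.40%, the heat shock element (GAANNTTC) in 6.32% above and 7.05% below, against 5.66%, and the CRE (TGACGTCA) in 1.49% above and 1.36% below, against 3.17%. In all 32851 promoters of the table, expressed in these cells or not, ETS stood at 8.86%, RUNX at 16.8%, AP-1 at 7.81%, SP and KLF at 35.7%, the E-box at 7.15%, forkhead at 3.65%, NF-kB at 1.20%, the TATA box at 13.6%, the heat shock element at 7.86% and the CRE at 1.79%. No test was made on these shares.

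Split by the brain effect in each cell type, the genes at or below -1 were most often higher in brain only in nonTreg. The values that chose these genes also define this split and the split by organ below, so both are descriptions only. Of all members 12.3% were 2-fold higher in brain in nonTreg and 11.6% 2-fold lower in brain in Treg, whatever the other cell type did. Of 429 genes, 159 (37.1%) had brain 2-fold or more above spleen in nonTreg and within 2-fold in Treg, Coro2a, Il2ra, Cd79b, Map6 and Entpd1 first. Higher in brain in both were 100 (23.3%), led by Rgs1, Lilrb4a, Ly6d, Spry1 and Lamc1, and lower in brain in Treg only were 90 (21.0%), led by Fhdc1, Arhgap20, Gucy1a1, Zfp607b and Zfp608. A further 56 were within 2-fold in both, 19 were lower in both, led by Serpina9 (-2.34, and -0.79 with normexp), and 5 were lower in Treg and higher in nonTreg. The 261 genes at or above 1 were spread more evenly, with 64 (24.5%) higher in brain in Treg only, 60 (23.0%) lower in brain in nonTreg only and 58 (22.2%) higher in both. Klrd1, Pde3b, Tmem141, Sgk1 and Sco1 led the group higher in Treg only, Adamts14, Ly6g6d, Padi3, Fbxo39 and Acvrl1 the group lower in nonTreg only, and Neurl1a, Phldb1, Zmynd15, Epas1 and H2-Ab1 the group higher in both. Epas1, the hypoxia-inducible factor HIF-2 alpha, had 1405 in brain Treg and 130.1 in spleen Treg, against 1575 in brain nonTreg and 569 in spleen nonTreg (1.96). Of the rest, 56 were within 2-fold in both, 17 were lower in both, led by Cnga1 (1.66), and 6 were higher in Treg and lower in nonTreg. The genes that moved in opposite directions included Prodh, proline dehydrogenase, with 106 in brain Treg and 252 in spleen Treg, against 83.4 in brain nonTreg and 41.4 in spleen nonTreg (-2.26, and -1.29 with normexp).

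Read as Treg against nonTreg within each organ, the spread between the cell types was wider in the spleen. The SD of Treg minus nonTreg over members was 0.39 in the brain and 0.55 in the spleen. In the brain Treg exceeded nonTreg by 2-fold for 206 genes (1.82%) and were below it for 121 (1.07%), and in the spleen they exceeded it for 471 (4.16%) and were below it for 203 (1.79%). Of the 429 genes at or below -1, 231 (53.8%) were higher in Treg in the spleen and within 2-fold in the brain, 34 were higher in both organs, 47 were lower in Treg only in the brain, and 110 were within 2-fold in both. Il2ra, Myo1e, Penk, Dst and Ebi3 led the genes higher in both organs. Penk encodes proenkephalin, a marker of tissue Treg, with 5846 in brain Treg and 1194 in spleen Treg, against 2394 in brain nonTreg and 76.8 in spleen nonTreg (-2.67). Lower in brain Treg only were Ccr9, a homing receptor for the gut, with 432 in brain Treg and 289 in spleen Treg, against 1429 in brain nonTreg and 164 in spleen nonTreg (-2.54), and Cpne7, a copine, with 1343 in brain Treg and 699.7 in spleen Treg, against 3405 in brain nonTreg and 418 in spleen nonTreg (-2.08). Higher in Treg in the spleen and lower in the brain were 6 genes, among them Ly6d, Fhdc1, Spry1, Bcl2 and Gzmc, a granzyme, with 214 in brain Treg and 62.6 in spleen Treg, against 582.2 in brain nonTreg and 29.3 in spleen nonTreg (-2.54, and -1.59 with normexp). Klrb1c was lower in Treg in both organs. Of the 261 genes at or above 1, 101 (38.7%) were lower in Treg only in the spleen, 46 higher in Treg only in the brain, 12 lower in both, 2 lower in the spleen and higher in the brain (Tent5a and Padi3), and 100 within 2-fold in both. Lypd6b, a surface protein gene, was among those lower in both, with 40.2 in brain Treg and 67.5 in spleen Treg, against 138 in brain nonTreg and 1001 in spleen nonTreg (2.11), although a second probe gave 0.85.

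**Figure D3:**
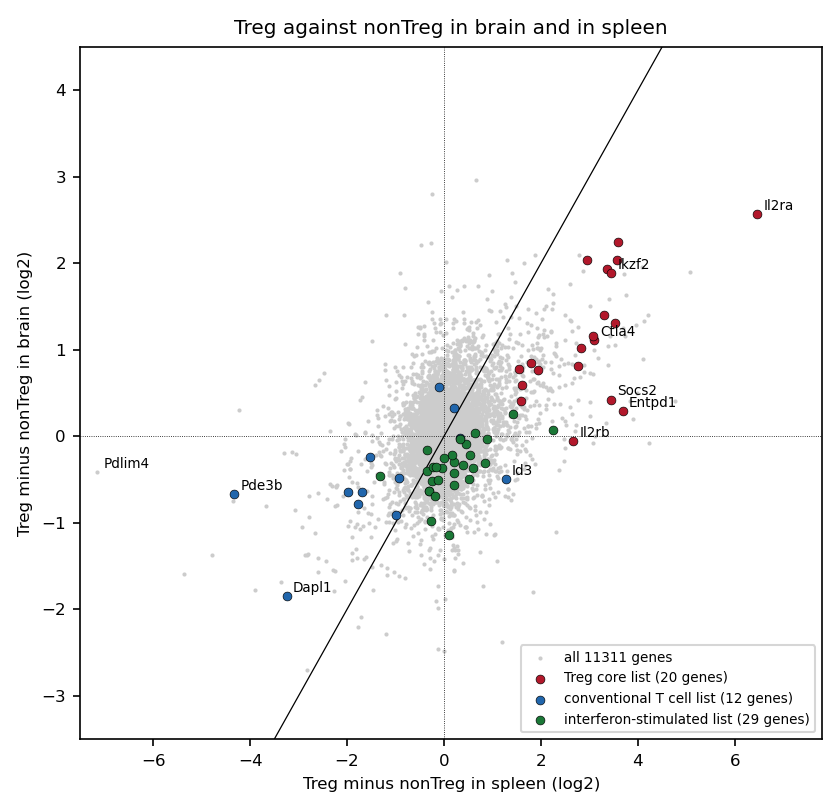
Treg minus nonTreg in the brain (vertical axis, log2) against Treg minus nonTreg in the spleen (horizontal axis, log2), with the line of equal values and the vertical scale drawn larger than the horizontal; grey points are all 11311 genes. All 20 Treg core genes (red) lie right of the line, 27 of 29 interferon-stimulated genes (green) do, and 10 of 12 conventional T cell genes (blue) lie left of it.

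The Treg core genes had the lowest median of the 26 pathway lists, -1.68 over the 20 members, against 0.02 over all genes. All 20 were below 0 and 17 were at or below -1, where 3.79% of all members were. Treg exceeded nonTreg by 2-fold in 20 of the 20 in the spleen (median 3.09) and in 11 in the brain (median 1.07). Brain minus spleen had a median of 0.73 in Treg and of 2.66 in nonTreg, with brain 2-fold above spleen for 17 of the 20 in nonTreg and for 9 in Treg. Ctla4 encodes a receptor that blocks costimulation and had 3278 in brain Treg and 693 in spleen Treg, against 1512 in brain nonTreg and 81.0 in spleen nonTreg (-1.98). Tnfrsf4 encodes the costimulatory receptor OX40 and had 61790 in brain Treg and 18398 in spleen Treg, against 30374 in brain nonTreg and 2605 in spleen nonTreg (-1.80). Nrp1, neuropilin 1, a marker of thymic Treg in mice, had 5821 in brain Treg and 5499 in spleen Treg, against 3311 in brain nonTreg and 807 in spleen nonTreg (-1.95), and 2 further probes gave -2.54 and -2.20. Ebi3, a subunit of the cytokine IL-35, had 4450.2 in brain Treg and 1313 in spleen Treg, against 1791 in brain nonTreg and 114 in spleen nonTreg (-2.21). In all of these spleen nonTreg were lowest, and with normexp Ctla4 came to -1.12 and Ebi3 to -1.44.

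Ikzf2 and Ikzf4, both of the Ikaros family of transcription factors, had values nearer 0 than the list's median. Ikzf2, which encodes Helios, had 3557 in brain Treg and 4132 in spleen Treg, against 965 in brain nonTreg and 379 in spleen nonTreg (-1.57), and Ikzf4, which encodes Eos, had 2472 in brain Treg and 5114 in spleen Treg, against 522 in brain nonTreg and 422 in spleen nonTreg (-1.35). In the brain Treg still exceeded nonTreg, by 3.69-fold for Ikzf2 and 4.74-fold for Ikzf4. Gpr83, a receptor gene that is highest in resting Treg, went the other way between organs, with 425 in brain Treg and 7264 in spleen Treg, against 111 in brain nonTreg and 705 in spleen nonTreg (-1.43), being lower in brain in both cell types. Izumo1r, which encodes the folate receptor-like protein FR4, had 14795 in brain Treg and 50902 in spleen Treg, against 9791 in brain nonTreg and 16665 in spleen nonTreg (-1.02), with spleen Treg alone high. Swap70, a guanine nucleotide exchange factor, was at -1.53 and came to -0.54 with normexp. Nt5e, the enzyme CD73, was at -1.19, Capg, an actin-capping protein, at -1.17, and Cd83, an activation marker, at -1.91. Plagl1, a zinc finger gene, was at -1.91 and nearer 0 with normexp, and a second probe gave 1.49, the one further probe at 2-fold on the opposite side. Itgae, the integrin chain CD103, was dim in spleen nonTreg and bounded at -2.76 or lower. With normexp 16 of the 20 stayed at or below -1.

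Genes of IL-2 signalling, which overlap the Treg core list in Il2ra, Il2rb and Socs2, had a median of -0.46 over 18 members, with 7 at or below -1 and 1 at or above 1. Among the receptor chains, Il2rb had 10125 in brain Treg and 9988 in spleen Treg, against 10511 in brain nonTreg and 1574 in spleen nonTreg (-2.72), with a second probe at -2.71. Il2rg, the chain shared by the gamma chain cytokines, was at 0.03, so the receptor chains did not move together. Il7r, the IL-7 receptor, was on the opposite side, with 13553 in brain Treg and 6171 in spleen Treg, against 17285 in brain nonTreg and 17517 in spleen nonTreg (1.15), spleen Treg being low. Of the feedback inhibitors, Socs2 had 607 in brain Treg and 272 in spleen Treg, against 453 in brain nonTreg and 24.9 in spleen nonTreg (-3.02, and -1.45 with normexp), Socs1 had 1291 in brain Treg and 3085 in spleen Treg, against 1727 in brain nonTreg and 1082 in spleen nonTreg (-1.93) and Socs3 had 4757 in brain Treg and 6300.3 in spleen Treg, against 9862 in brain nonTreg and 5565 in spleen nonTreg (-1.23). Together with Cish and Bcl2 these were the 7 members at or below -1. The kinases and STATs themselves were nearer 0, with Jak3 at -0.98, Jak1 at 0.15, Stat5a at 0.45 and Stat5b at -0.13.

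Genes of tissue and effector Treg had a median of -0.51 over 12 members, with 3 at or below -1 and 1 at or above 1, and brain exceeded spleen by 2-fold for 11 of 12 in Treg and 10 of 12 in nonTreg. Irf4, a transcription factor of effector Treg, had 2128 in brain Treg and 399 in spleen Treg, against 2825 in brain nonTreg and 181 in spleen nonTreg (-1.55), and brain exceeded spleen in both cell types. Nfil3, a repressor of the bZIP family, was at -1.13 but at -0.33 with normexp. Cxcr6, a receptor of tissue-resident T cells, was the member above 1, with 10640 in brain Treg and 273 in spleen Treg, against 13805 in brain nonTreg and 1040.3 in spleen nonTreg (1.56). Several known genes of tissue Treg were dim in spleen nonTreg and gave bounds. Il1rl1, the IL-33 receptor ST2, had 6445 in brain Treg and 190.3 in spleen Treg, against 2009 in brain nonTreg and 3.11 in spleen nonTreg, and was bounded at -2.26 or lower. Klrg1, an inhibitory receptor of effector T cells, had 3382 in brain Treg and 209.9 in spleen Treg, against 914 in brain nonTreg and 6.14 in spleen nonTreg (bound -2.20 or lower). Ccr8 had 1283 in brain Treg and 43.3 in spleen Treg, against 572 in brain nonTreg and 4.66 in spleen nonTreg (bound -0.64 or lower), and Il10, an anti-inflammatory cytokine, had 1181 in brain Treg and 19.7 in spleen Treg, against 450.4 in brain nonTreg and 3.05 in spleen nonTreg, where a bound of 0.72 or lower fixes no direction. Areg, the growth factor amphiregulin, was dim on both spleen arrays and has no value, and its signals were 1546 in brain Treg and 8.81 in spleen Treg, against 398 in brain nonTreg and 3.21 in spleen nonTreg. Gata3, Batf and Rora lay at 0.01, 0.09 and 0.15.

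Conventional T cell genes were the list on the other side, with a median of 0.83 over 12 members, 5 at or above 1 (2.31% of all members) and 1 at or below -1. Pde3b led the list. Dapl1 had 274 in brain Treg and 1087 in spleen Treg, against 987 in brain nonTreg and 10327 in spleen nonTreg (1.40), and Igfbp4, an insulin-like growth factor binding protein, had 25.4 in brain Treg and 188 in spleen Treg, against 39.8 in brain nonTreg and 737 in spleen nonTreg (1.33). Lef1, a transcription factor of naive T cells, had 3631 in brain Treg and 9157 in spleen Treg, against 4271 in brain nonTreg and 26413 in spleen nonTreg (1.29), and Themis, a T cell receptor signalling protein, was at 1.05. Themis was under 2-fold with normexp (0.93) and with further probes (0.66 and 0.72), as was Igfbp4 with a second probe (0.90). In Dapl1, Igfbp4 and Lef1 spleen nonTreg were highest, and both cell types were lower in the brain. Id3, an inhibitor of E proteins, was the exception, with 509.6 in brain Treg and 2088 in spleen Treg, against 717 in brain nonTreg and 862 in spleen nonTreg (-1.77). The naive and recirculating list, which shares Dapl1, Igfbp4 and Lef1, had a median of 0.04 over 19 members (below 0 with quantile normalization), with 5 at or above 1 and none at or below -1. The other 2 at or above 1 were Il7r and the lymph node homing receptor Ccr7, with 9125 in brain Treg and 11911 in spleen Treg, against 7603 in brain nonTreg and 20887 in spleen nonTreg (1.07, and 0.90 with a second probe). Klf2 and S1pr1, which guide recirculation, were at 0.03 and 0.01, and 14 of the 19 genes were within 2-fold. Both cell types were lower in the brain for this list, by a median of -1.78 in Treg and -2.07 in nonTreg.

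Effector genes went both ways. The Th1 and cytotoxic list had a median of -0.38 over 13 members, with 2 at or below -1 and 1 at or above 1. Ifng, the Th1 cytokine interferon gamma, had 4498 in brain Treg and 227 in spleen Treg, against 16855 in brain nonTreg and 253 in spleen nonTreg (-1.75), so that Treg and nonTreg were alike in the spleen (-0.16) and Treg were lower in the brain (-1.91). Ctsw, a cathepsin of cytotoxic cells, had 2915 in brain Treg and 1728 in spleen Treg, against 6018 in brain nonTreg and 1269 in spleen nonTreg (-1.49). Gzma, a granzyme, had 909 in brain Treg and 17.2 in spleen Treg, against 2409.6 in brain nonTreg and 104 in spleen nonTreg (1.19), a value that turned to -0.25 with normexp. Cxcr3 and Tbx21, receptor and regulator of Th1 cells, were at -0.83 and -0.60. Ccl4, a chemokine, was dim in spleen Treg and bounded at 1.81 or higher. Of the NK cell receptors 5 were members, and beside Klrd1 they lay below 0, with Klrb1f at -1.54 and Klrb1c at -1.09, which came to -0.86 and -0.68 with normexp. Outside the members, Klrk1 was bounded at 0.37 or higher and Klra8 at -2.47 or lower. The summed signal of the 10 NK cell markers was 9445 in brain Treg, 292.0 in spleen Treg, 10550 in brain nonTreg and 779.8 in spleen nonTreg, of which Tyrobp, an adaptor also used by myeloid cells, made up most in the brain. Without Tyrobp the sums were 1152 in brain Treg, 289.5 in spleen Treg, 3273 in brain nonTreg and 774.3 in spleen nonTreg. The sum of the CD8 markers was 1938 in brain Treg, 1070 in spleen Treg, 3911 in brain nonTreg and 1247 in spleen nonTreg. Cd8b1 made up most of this sum on every array. Cd8a, the other CD8 marker, had 83.4 in brain Treg and 4.20 in spleen Treg, against 263 in brain nonTreg and 2.78 in spleen nonTreg. Both spleen arrays were thus dim for Cd8a. The part of NK cell and CD8 markers in the values of these effector genes was not tested. Among Th2 and Th17 genes, Ahr, the aryl hydrocarbon receptor, was at -1.61 and -0.98 with normexp, and Ccr6 was at -0.91, with no other of the 7 members at 2-fold.

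Interferon-stimulated genes were lower almost throughout, by a small step. Of 29 members 27 were below 0, where 5424 of all 11311 members were, and the median was -0.51. At or below -1 were 4, against 3.79% of all members. Gbp3, a guanylate-binding protein, had 933 in brain Treg and 939 in spleen Treg, against 886 in brain nonTreg and 197 in spleen nonTreg (-2.17), and Gbp5 of the same family had 1085 in brain Treg and 1989 in spleen Treg, against 911 in brain nonTreg and 743 in spleen nonTreg (-1.17). Isg20, an antiviral exonuclease, had 9732 in brain Treg and 3539.7 in spleen Treg, against 12051 in brain nonTreg and 1961 in spleen nonTreg (-1.16), with a second probe at -1.42. Oas3, an oligoadenylate synthetase, was at -1.24 and -0.87 with normexp. The signalling factors Stat2, Irf7 and Irf9 were at -0.36, -0.33 and -0.39. Oas2 (0.86) and Oasl1 (0.19) were the members above 0. In the brain the list was lower in Treg than in nonTreg (median -0.36) and in the spleen higher (median 0.17), and brain exceeded spleen by a median of 0.69 in Treg and 1.17 in nonTreg.

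Activation genes mostly lay below 0 as well. Immediate early and NR4A genes had a median of -0.38 over 20 members, with 5 at or below -1 and 1 at or above 1. Nr4a1, an orphan nuclear receptor induced by the T cell receptor, had 57615 in brain Treg and 3916 in spleen Treg, against 61854 in brain nonTreg and 1790.2 in spleen nonTreg (-1.23). Egr2, a transcription factor of the same response, had 533 in brain Treg and 1268 in spleen Treg, against 807 in brain nonTreg and 658 in spleen nonTreg (-1.54), and Dusp2, a MAP kinase phosphatase, had 21811 in brain Treg and 14669 in spleen Treg, against 46858 in brain nonTreg and 10604 in spleen nonTreg (-1.57). Nr4a2 (-1.09) and Dusp5 (-1.07) came to -0.19 and -0.26 with normexp. Fosl2, a subunit of AP-1, was the member above 1, at 1.20 and 0.71 with normexp. Dusp4 was dim in spleen nonTreg and bounded at -3.10 or lower. Fos, Jun and Zfp36, which rise when tissue is dissociated, were at 0.06, -0.14 and -0.03, while Fosb, Dusp1 and Junb were at -0.60, -0.64 and -0.35. Over this list 16 members lay below 0 and 4 above. Brain was far from spleen in both cell types for the list as a whole (medians 1.66 in Treg and 1.74 in nonTreg). NF-kB genes had a median of -0.21 over 17 members, with Tnf at -1.47 and Nfkbiz at -1.04 past 2-fold, the second of them not with normexp (-0.87). Tnf, the cytokine, had 1618 in brain Treg and 685 in spleen Treg, against 2587 in brain nonTreg and 396 in spleen nonTreg. T cell receptor signalling genes had a median of -0.17 with none of 25 at 2-fold, although 21 were below 0. Checkpoint and costimulatory receptors had a median of -0.42 over 16 members with 15 below 0, and beside Ctla4 those at or below -1 were Tnfrsf1b (-1.31), the TNF receptor of Treg, Cd96 (-1.04) and Cd160 (-1.04). Tnfrsf1b and Cd160 came to -0.86 and -0.22 with normexp. Heat shock genes had a median of -0.16 with none of 12 at 2-fold, and Hspb1, a small heat shock protein dim in spleen nonTreg, was bounded at -4.04 or lower.

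**Figure D4:**
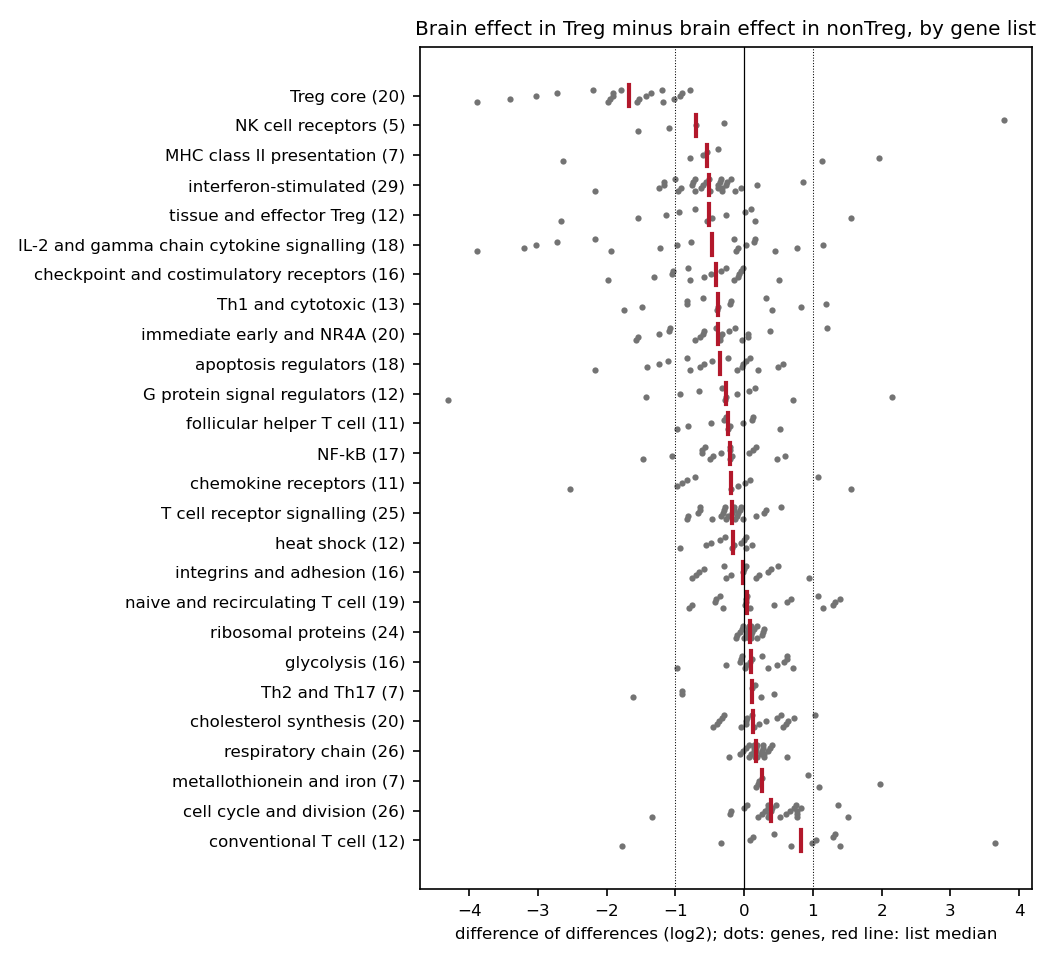
Difference of differences (log2) of each member gene (dots) and the median (red line) for the 26 pathway lists, with the number of members in brackets; dotted lines mark 2-fold. Lists run from the lowest median, Treg core (-1.68), to the highest, conventional T cell (0.83), and ribosomal protein genes lie closest together around 0.

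Cell division genes were mostly above 0. The list had a median of 0.39 over 26 members, 22 of them above 0, where 5887 of all 11311 members were. At or above 1 were 2, against 2.31% of all members, and at or below -1 was 1, against 3.79%. Brain exceeded spleen by 2-fold for all 26 in Treg and for 23 in nonTreg. Stmn1, a microtubule-destabilising protein of dividing cells, had 10204 in brain Treg and 1051 in spleen Treg, against 6569 in brain nonTreg and 1928 in spleen nonTreg (1.51), with a second probe at 1.48. Ccnb1, cyclin B1, had 937 in brain Treg and 47.5 in spleen Treg, against 406 in brain nonTreg and 53.3 in spleen nonTreg (1.37). Tk1, thymidine kinase, was the exception, at -1.34 and -0.55 with normexp. Mki67, the marker of cycling cells, and Top2a were at 0.27 and 0.00. Respiratory chain genes had a median of 0.17 with 23 of 26 above 0 and none at 2-fold, Ndufa4 being highest (0.62). Ribosomal protein genes had a median of 0.08, which was below 0 with quantile normalization, with none of 24 at 2-fold, and their range was -0.11 to 0.29. Glycolysis genes had a median of 0.09, which was below 0 with the median over a gene's probes, and no member at 2-fold, with Pgam1 (0.72), Tpi1 (0.62) and Pgk1 (0.62) highest and the glucose transporter Slc2a3 lowest (-0.98). Cholesterol synthesis genes had a median of 0.13, and Hsd17b7 (1.04, and 0.95 with normexp) alone of 20 reached 2-fold.

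Among receptors and survival genes single members stood out. Chemokine receptors had a median of -0.19 over 11 members, with Ccr9 at or below -1 and Cxcr6 and Ccr7 at or above 1. Regulators of G protein signalling had a median of -0.27 over 12 members and held extremes of both signs. Beside Rgs1, Rgs16 had 5171 in brain Treg and 521 in spleen Treg, against 3008 in brain nonTreg and 112 in spleen nonTreg (-1.43, and -0.83 with normexp), while Rgs11 had 179.9 in brain Treg and 217 in spleen Treg, against 162 in brain nonTreg and 860.3 in spleen nonTreg (2.15), with spleen nonTreg alone high. Apoptosis regulators had a median of -0.35 over 18 members, with 4 at or below -1. Besides Bcl2, these were the pro-apoptotic genes Bcl2l11 (BIM), with 620.4 in brain Treg and 1869 in spleen Treg, against 1136 in brain nonTreg and 1450.3 in spleen nonTreg (-1.24), Bbc3 (PUMA) at -1.11 and Pmaip1 (NOXA) at -1.41, which came to -0.67 with normexp. The inducer Bax (0.50) and the inhibitor Cflar (0.56) lay above 0. Further Bcl2l11 probes gave -0.82, -0.18 and -0.89. Integrin and adhesion genes had a median of -0.01, above 0 with the other scaling points, with none of 16 at 2-fold, Itgb3 being highest (0.95). Follicular helper genes had a median of -0.23 with none of 11 at 2-fold, and Cxcr5 was lowest (-0.98).

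MHC class II genes split. H2-Ab1, the beta chain of I-A, had 9927 in brain Treg and 12.8 in spleen Treg, against 10573 in brain nonTreg and 53.3 in spleen nonTreg (1.96), and H2-Eb1, the beta chain of I-E, had 11235 in brain Treg and 27.6 in spleen Treg, against 10485 in brain nonTreg and 56.6 in spleen nonTreg (1.14). Both rest on spleen signals near the floor and came to 0.78 and 0.58 with normexp. Cd74, the invariant chain that escorts class II molecules, was on the other side, with 7844 in brain Treg and 532 in spleen Treg, against 8620.3 in brain nonTreg and 93.6 in spleen nonTreg (-2.64). The 3 genes were alike in the brain libraries, where Treg minus nonTreg was -0.09, 0.10 and -0.14, and differed in the spleen, where it was -2.05, -1.04 and 2.51. The 7 members had a median of -0.54.

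Markers of other cells also differed between the libraries. The 15 B cell markers summed to 3786 in brain Treg, 1330 in spleen Treg, 7300 in brain nonTreg and 260.2 in spleen nonTreg, and 4 of them were members, all below 0 (median -2.22, Ly6d and Cd79b past 2-fold). Ly6d and Cd79b, already named among the lowest genes, made up much of these sums, which are therefore no separate support for them. Without Ly6d the sums were 2562 in brain Treg, 1268 in spleen Treg, 3050 in brain nonTreg and 243.0 in spleen nonTreg. Cd79b, with 1089 in spleen Treg and 68.9 in spleen nonTreg, made up most of the remaining spleen Treg sum. Well above background were 11 of the 15 B cell markers in brain Treg, 5 in spleen Treg, 13 in brain nonTreg and 4 in spleen nonTreg. The defining B cell marker Ms4a1, which encodes CD20, was near the floor in the spleen, with 53.1 in brain Treg and 2.17 in spleen Treg, against 133 in brain nonTreg and 2.72 in spleen nonTreg. A second probe of Cd22 gave -1.88, where the one used gave -0.40. The 15 microglia markers summed to 68356 in brain Treg, 25529 in spleen Treg, 34721 in brain nonTreg and 25245 in spleen nonTreg, and the 16 macrophage and monocyte markers to 144506 in brain Treg, 23545 in spleen Treg, 117299 in brain nonTreg and 28557 in spleen nonTreg. In the spleen Siglech, which plasmacytoid dendritic cells also express, made up most of the microglia sum. Without it the sums were 56944 in brain Treg, 1365 in spleen Treg, 22541 in brain nonTreg and 1435 in spleen nonTreg. The brightest macrophage and monocyte marker was Ly6c2, which was highest in brain nonTreg (54217). Without Ly6c2 that list summed to 115516 in brain Treg, 9122 in spleen Treg, 63082 in brain nonTreg and 9213 in spleen nonTreg. All 15 and all 16 were well above background in both brain libraries, against 5 and 7 in each spleen library. Csf1r, the receptor for colony stimulating factor 1, had 18669 in brain Treg and 119 in spleen Treg, against 7709 in brain nonTreg and 159 in spleen nonTreg (1.70). Fcer1g was at 1.51 and 0.97 with normexp, Apoe at 1.14, and Cx3cr1, dim in spleen Treg, at 3.09 or higher. Below 0 were Siglech (-0.12) and Gpr34 (-0.18) of the microglia list and Ly6c2 (-0.48) of the macrophage and monocyte list. Of the 4 microglia members 2 lay above 0 (median 0.70), and of the 7 macrophage and monocyte members 6 did (median 0.56). The defining microglia gene Tmem119 had 1518 in brain Treg and 8.37 in spleen Treg, against 479.6 in brain nonTreg and 9.59 in spleen nonTreg, dim in both spleen libraries. Iron and metallothionein genes had 7 of 7 members above 0. Hmox1, heme oxygenase 1, was at 1.98, or 1.06 with normexp (113 in brain Treg and 54.0 in spleen Treg, against 27.9 in brain nonTreg and 52.5 in spleen nonTreg). Trf, transferrin, was at 1.09 (4431 in brain Treg and 24.9 in spleen Treg, against 1764 in brain nonTreg and 21.1 in spleen nonTreg). The part of B cell, microglia and macrophage transcripts in the differences of differences was not tested. Endothelial markers summed to 3656 in brain Treg, 183.5 in spleen Treg, 5778 in brain nonTreg and 223.4 in spleen nonTreg, and those of pericytes and fibroblasts to 619.7 in brain Treg, 41.6 in spleen Treg, 1365 in brain nonTreg and 41.4 in spleen nonTreg. The summed signals of neuron, astrocyte and oligodendrocyte markers differed by under 2-fold between the Treg and the nonTreg library of each organ, although single markers differed by more, as Slc1a3 of astrocytes, with 58.2 in brain Treg and 2.16 in spleen Treg, against 15.2 in brain nonTreg and 2.72 in spleen nonTreg.

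**Figure D5:**
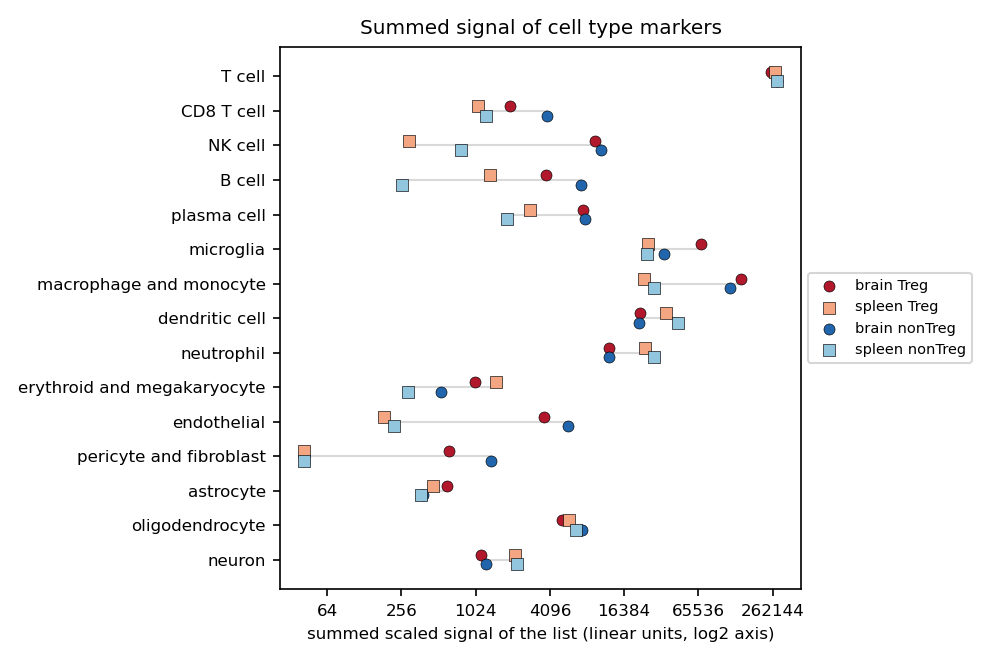
Summed scaled signal (linear units on a log2 axis) of 15 marker lists on the 4 T cell arrays; circles are brain and squares spleen, red is Treg and blue nonTreg. T cell markers coincide, microglia markers are highest in brain Treg (68356), B cell markers are highest in brain nonTreg (7300) and lowest in spleen nonTreg (260.2).

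Genes dim on 1 of the 4 arrays gave 665 bounds outside the members. Where spleen Treg or brain nonTreg were dim, 80 of 213 lower bounds (37.6%) were at least 2-fold above 0, and where spleen nonTreg or brain Treg were dim, 126 of 452 upper bounds (27.9%) were at least 2-fold below 0. Being dim on 1 array alone draws a gene to that side, so these shares cannot be set beside those of members. Spleen nonTreg was the dim array in 390 of the genes, among them Foxp3 and Lrrc32, and 115 of those bounds passed 2-fold. Among members, further probes measured on all 4 arrays agreed in sign with the one used for 147 of 161 (91.3%) where the gene was at 2-fold, and 81 (50.3%) were at 2-fold themselves. Unnamed loci made up 18 of the genes at or above 1 and 44 of those at or below -1.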

How the data were processed

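RNA was measured on 1-colour Agilent microarrays, and 4 of the 8 arrays, 1 per T cell group, enter the values here. Per the file headers and the submitters' processing notes, the authors deposited each array's Feature Extraction output (version 10.7.1.1), whose processed intensities are background-corrected. The authors' deposited series table of signal values was each array's processed intensity divided by about its 75th percentile, with a constant ratio for 99.889% to 99.91% of probes at a tolerance of 0.1%; it was used as an alternative only, and 4 of its columns were not used. All arrays shared 1 slide and 1 scan, so no batch could be split off.

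Outlier spots (69 to 109 per array) were left out, and spots of one probe were averaged. Log2 processed intensity was reduced by the 75th percentile that the array had among probes measured above background on every one of the 4, and scaled signals are these values on a linear scale. Of 56605 probes, 24603 were well above background on all 4 arrays, and 47.6% to 51.9% were on each array. RefSeq names on GRCm38.p6 were matched by accession for 32994 probes (22911 genes), 23611 probes stay unnamed, and the probe with the highest mean stood for a gene. A gene dim on 1 array got a bound from the lowest signal well above background on that array.

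The genes named are the 20 highest and 20 lowest with a gene symbol, the 5 of largest size in each pattern, any list member at 2-fold and the 4 of largest size in each list, plus Foxp3, Il2ra, Ctla4, Areg, Il1rl1, Ccr8, Lrrc32, Ikzf2 and Il10, as bounds where dim. Other genes named were chosen after their values were seen. The members and the 41 lists (602 symbols) were chosen with earlier results of these data known. The 8 alternatives and a 4-fold threshold were computed with Python 3.11.15, numpy 2.4.6, pandas 2.3.3, R 4.3.3 and limma 3.58.1 (normexp, with an offset of 50, on the median spot signal), and figures with matplotlib 3.10.9. Marker sums without the brightest gene of a list were added after the data were seen. The calculation was tested on simulated data. The number of arrays limits the precision. A few genes are not reported here.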

Additional observations from a re-analysis of the deposited data

Results flagged for a closer look

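In 11 genes brain and spleen differed by at least 2-fold in opposite directions in Treg and in nonTreg; with 1 array per group the difference was not tested. Brain was above spleen in Treg and below it in nonTreg for Pdlim4 (difference of differences 6.74), Nacc2 (4.52), Nme4 (3.60), Myo10 (3.10), Wnt5b (2.94) and Wdr35, a gene of ciliary transport (2.68). With normexp these came to 5.53 for Pdlim4, 2.60 for Nacc2, 1.96 for Nme4, 1.17 for Myo10, 1.20 for Wnt5b and 0.99 for Wdr35. Brain was below spleen in Treg and above it in nonTreg for Gm4951 (-2.62), Gm3383 (-2.58), Gm10406 (-2.47), Gm3317 (-2.28) and Prodh (-2.26). Gm3383, Gm10406 and Gm3317 are predicted genes of near-identical families, so their probes may read several copies, and Gm4951 and Prodh came to -1.25 and -1.29 with normexp.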

How the results depend on the processing

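Counts at 2-fold above and below 0 (261 and 429) changed most with the treatment of dim probes. With normexp they were 110 and 170, of which 102 and 168 were among those reported, with no filter on dim probes 957 and 779, with a signal of at least 50 on all arrays 106 and 209, and at 4-fold 33 and 68. Of the genes below 0, those higher in brain in nonTreg only, higher in both and lower in Treg only numbered 61, 37 and 39 with normexp, 299, 169 and 181 with no filter, and 81, 49 and 40 at a signal of 50. Of the genes above 0, those higher in brain in Treg only, higher in both and lower in nonTreg only numbered 29, 32 and 22 with normexp, 309, 259 and 192 with no filter, and 27, 22 and 20 at a signal of 50. Genes higher in Treg in the spleen only numbered 96 with normexp and 116 at a signal of 50, and genes lower in Treg in the spleen only 47 with normexp, 258 with no filter and 41 at a signal of 50. Without the filter the median of all genes moved by 0.22, and genes at 2-fold above 0 then outnumbered those below. That setting raised dim signals to each array's lowest signal well above background. These floors were 8.47 in brain Treg, 9.85 in spleen Treg, 9.12 in brain nonTreg and 12.4 in spleen nonTreg. Unequal as they are, they alone put a gene dim on all 4 arrays above 0, so neither change can be read as expression. Quantile normalization (283 and 412), the percentile over all probes (281 and 409), median scaling (282 and 405), the median of a gene's probes (262 and 434) and the deposited table (281 and 409) stayed within 1.5 times. Treg core genes at or below -1 numbered 14 to 20 over all 8 alternatives. Of the 215 named genes, Gzma alone went past 2-fold as reported and changed sign, with -0.25 under normexp against 1.19, and the cause was not tested. No paired analysis was possible because each group has 1 array, and leaving out an array leaves no contrast. Values of genes with a signal under 50 are the least precise.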
